A study of Mus musculus with 4 samples.

Results

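Distal intergenic RUNX1 peaks are the stretches of 300 bp bound by RUNX1 in the fetal ovary that lie outside curated genes and away from their starts. A peak was counted as one when its midpoint lay outside every curated RefSeq transcript, more than 10 kb and at most 100 kb from the nearest transcription start site (TSS). Of 10490 RUNX1 peaks on chromosomes 1 to 19 and X, 776 (7.40%) met this rule. No distance from transcript ends was required, and 157 of the 776 peaks lay within 10 kb of a curated transcript end. The peaks came from ChIP-seq, in which an antibody pulls down the DNA that a protein sits on in fixed chromatin. The chromatin was from pooled ovaries, freed of the mesonephros, of CD1 XX embryos at E14.5, with 2 RUNX1 ChIP samples (80 to 100 ovaries and 20 to 30 μg of chromatin each, by the labels, whereas the methods give another number of ovaries) and 2 input samples, chromatin that was not precipitated and serves as background. Whole ovaries hold supporting, stromal, endothelial, blood and germ cells, and the peaks do not tell which of these cells carried RUNX1. The authors called the peaks once, on the merged replicates, so a peak has 1 fold over input and 1 p-value and no value per sample. The reads behind a peak are not known, and the tests below compare peaks with each other or with the DNA beside them and do not measure the spread between pools of ovaries.

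RUNX1 belongs to a family of transcription factors that bind a short DNA word, TGTGGT or TGCGGT, and that act with a shared partner, CBFB. In the fetal ovary RUNX1 is made by the pre-granulosa cells, the supporting cells that surround the germ cells and later become granulosa cells. Sites far from genes are where enhancers lie, stretches that raise the transcription of a gene at a distance, and a nearest gene is a label of position and need not be the gene that such a site acts on. CpG-rich stretches outside of genes can also be promoters of transcripts that an annotation does not hold.

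The word bound by RUNX factors, here called the RUNX core, is shown in 8 of the 11 distal intergenic peaks of highest fold that hold it. Each line gives the nearest gene and 61 bases on the strand of the core nearest to the midpoint, in capitals, with mm10 coordinates. The other 3 are not shown here.
Dnah7a, chr1:53741081-53741141, + strand: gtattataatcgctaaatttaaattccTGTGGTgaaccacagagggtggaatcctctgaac
C230072F16Rik, chr17:80813337-80813397, + strand: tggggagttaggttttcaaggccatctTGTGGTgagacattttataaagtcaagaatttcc
5033404E19Rik, chr1:185574856-185574916, + strand: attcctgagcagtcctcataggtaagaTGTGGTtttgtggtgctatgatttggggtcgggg
Col6a2, chr10:76669136-76669196, - strand: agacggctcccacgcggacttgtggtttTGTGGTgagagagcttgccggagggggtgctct
Tmsb10, chr6:72981458-72981518, + strand: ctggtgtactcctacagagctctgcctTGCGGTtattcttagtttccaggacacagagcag
Dlk1, chr12:109438044-109438104, - strand: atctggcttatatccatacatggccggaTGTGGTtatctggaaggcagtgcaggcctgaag
Psmd4, chr3:95053916-95053976, + strand: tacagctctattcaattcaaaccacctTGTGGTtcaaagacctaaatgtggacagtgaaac
Galnt13, chr2:54409037-54409097, + strand: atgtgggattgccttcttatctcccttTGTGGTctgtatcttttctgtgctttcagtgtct

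The 2 highest of these peaks are given whole, on the forward strand and with every core on either strand in capitals, to show where the cores lie within the 300 bp. On the forward strand a core of the other strand reads ACCACA or ACCGCA.
Dnah7a, chr1:53740947-53741246, + strand: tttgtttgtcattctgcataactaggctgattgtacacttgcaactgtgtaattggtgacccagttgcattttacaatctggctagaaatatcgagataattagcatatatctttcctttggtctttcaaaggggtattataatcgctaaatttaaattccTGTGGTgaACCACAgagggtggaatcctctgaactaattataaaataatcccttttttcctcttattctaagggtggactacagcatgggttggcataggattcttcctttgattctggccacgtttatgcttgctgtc
C230072F16Rik, chr17:80813222-80813521, + strand: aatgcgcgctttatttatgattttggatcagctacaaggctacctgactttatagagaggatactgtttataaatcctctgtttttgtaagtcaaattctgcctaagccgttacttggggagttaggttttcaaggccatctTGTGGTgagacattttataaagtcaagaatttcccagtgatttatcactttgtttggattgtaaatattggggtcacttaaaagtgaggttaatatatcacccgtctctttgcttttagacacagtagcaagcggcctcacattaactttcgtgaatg

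RUNX cores were concentrated in the distal intergenic peaks. A core lay in 461 of 776 peaks, or 59.4% (exact 95% interval 55.9 to 62.9%), where 39.9% of all RUNX1 peaks held one. In stretches of 300 bp placed 1 kb to the lower-coordinate side of the same peaks the share was 22.9%, and it was 59.4% in the 769 peaks whose stretch touched no other peak, a difference of 36.5 percentage points (exact McNemar test, p = 2.44e-46). Over the promoters of all RefSeq genes, also 300 bp long, 22.4% held a core. Of the 776 peaks, 328 had 1 core, 111 had 2, 21 had 3 and 1 had 4, which left 315 without any.

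The cores sat in the middle of the peaks. Within 50 bp of the midpoint there were 0.452 cores per 100 peaks and bp, against 0.0969 beyond 500 bp, a ratio of 4.67. For distal intronic peaks (over 10 kb from a TSS, within an intron, n = 610) this ratio was 4.84, and for TSS-proximal peaks (within 1 kb of a TSS, n = 7892) it was 2.15. In the 461 distal intergenic peaks with a core, the core nearest to the midpoint was a median of 34.5 bp away (quartiles 15.5 and 64.5 bp), and in 305 of them (66.2%) it was within 50 bp.

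**Figure D1:**
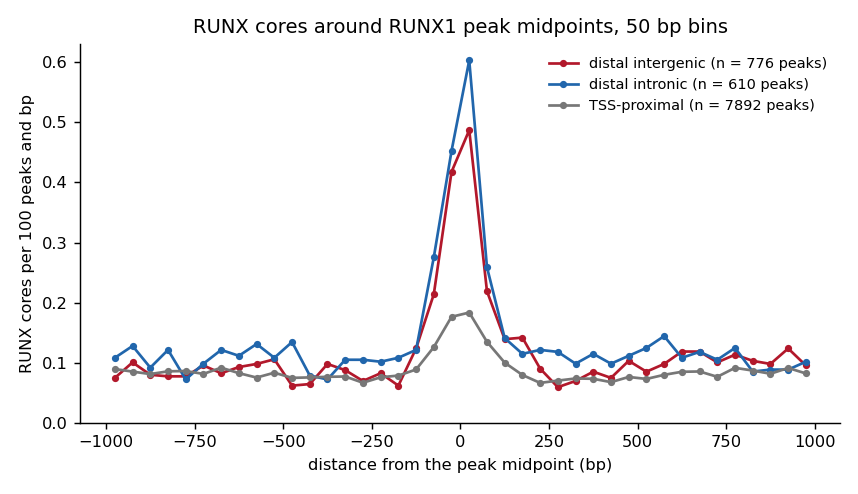
RUNX cores per 100 peaks and bp (vertical axis) by distance from the peak midpoint in bp (horizontal axis), in bins of 50 bp, for distal intergenic, distal intronic and TSS-proximal RUNX1 peaks. The distal intergenic line peaks at 0.487 in the 50 bp after the midpoint, between the intronic and the TSS-proximal lines.

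The bases around the cores also differed from those around cores found by letter match roughly 1 to 2 kb away on either side. The base before the core was C in 42.7% of the 461 cores nearest to a midpoint and in 27.7% of 1757 flanking cores, and it was T in 31.2% against 19.3%. The base after the core was T in 44.9% against 30.4%, and A in 6.51% against 16.5%. TGTGGT and TGCGGT were pooled here, and flanking stretches that touch another peak were not left out. These shares were not tested and are given as a description of the word that the peaks hold.

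The share of peaks with a core rose with the fold. It was 51.3% in the lowest quartile of fold (4.01 to 4.81), 64.6% in the quartile from 6.02 to 8.64 and 71.9% in the highest (8.79 to 133.29), while the quartile from 4.84 to 5.97, with 97 of 194 peaks, lay level with the lowest. Above the median fold of 5.97 the share was 68.2% of 387 peaks, and at or below it 50.6% of 389 (odds ratio 2.09, 95% interval from 1.56 to 2.79, p = 6.46e-07 by Fisher's exact test). The share fell with the content of G and C. It was 77.8% in the quartile of lowest G or C, 66.7% and 55.6% in the middle quartiles and 37.1% in the quartile of highest G or C. Above the median of 55.3% G or C the share was 46.2%, and at or below it 72.2% (odds ratio 0.331, 95% interval from 0.247 to 0.448, p = 1.88e-13 by Fisher's exact test). With distance to the TSS the share went from 57.5% at 10 to 20 kb over 58.9% at 20 to 50 kb to 63.0% at 50 to 100 kb.

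**Figure D2:**
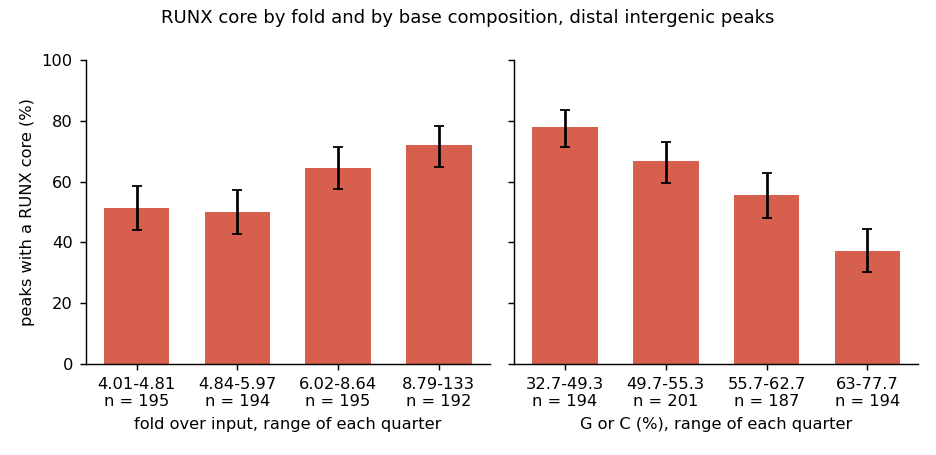
Share of distal intergenic RUNX1 peaks with a RUNX core (vertical axis, %) in 4 quartiles of fold over input (left) and of G or C content (right). Bars are shares, whiskers are exact 95% binomial intervals over peaks, and the share goes from 51.3% to 71.9% with fold and from 77.8% to 37.1% with G or C.

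Distal intergenic peaks held a core more often than TSS-proximal peaks, where the share was 34.1% of 7892 (p = 1.76e-42 by Fisher's exact test, with an odds ratio of 2.83 and a 95% interval of 2.43 to 3.28). The 2 forms of the core did not share in this difference. TGTGGT lay in 40.3% of distal intergenic and 13.1% of TSS-proximal peaks (odds ratio 4.49, Fisher's exact test, p = 3.60e-70), whereas TGCGGT, which contains a CpG, lay in 24.0% and 23.4% (odds ratio 1.03, p = 0.756). Against their own flanks both forms were more frequent, TGTGGT at 40.3% of the 776 peaks and 19.6% of the flanks and TGCGGT at 24.0% and 3.77%. Both forms together were present in 38 peaks.

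Against the distal intronic peaks the share was slightly lower, 59.4% against 64.8% (odds ratio 0.797, 95% interval from 0.640 to 0.992, p = 0.0451 by Fisher's exact test). Among peaks of 45% to 60% G or C the odds ratio came to 1.05 (p = 0.775 by Fisher's exact test), so no difference passed the threshold there. Intergenic peaks over 100 kb from any TSS, 191 in number, held a core in 70.2%.

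The distal intergenic peaks were then split by CpG content. Counted as CpG-rich were peaks with 50% or more G or C and an observed over expected CpG ratio of 0.6 or more, a split that was chosen after seeing the data. There were 246 such peaks (31.7%), against 12.1% of the distal intronic peaks (odds ratio 3.36, 95% interval from 2.51 to 4.45, p = 1.76e-18 by Fisher's exact test) and 91.4% of the TSS-proximal peaks. A core lay in 99 of the 246 CpG-rich peaks (40.2%, exact 95% interval 34.1 to 46.7%) and in 362 of the other 530 (68.3%, 64.2 to 72.2%), an odds ratio of 0.313 (Fisher's exact test, p = 1.81e-13). Again the form differed: TGTGGT was in 11.4% of the CpG-rich and 53.8% of the other peaks, and TGCGGT in 31.7% and 20.4%. The median fold was 5.86 in CpG-rich and 6.13 in the other peaks.

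The classes were then compared within each side of this split, also after seeing the data. CpG-rich distal intergenic peaks held a core in 40.2%, CpG-rich TSS-proximal peaks in 32.9% (odds ratio 1.37, 95% interval from 1.06 to 1.78, p = 0.0191 by Fisher's exact test). Among peaks that were not CpG-rich the shares were 68.3% and 46.5% (odds ratio 2.48, 95% interval 1.95 to 3.13, p = 3.72e-14 by Fisher's exact test). Against the distal intronic peaks the shares were 40.2% and 32.4% in CpG-rich peaks (odds ratio 1.40, 95% interval 0.806 to 2.40, p = 0.276) and 68.3% and 69.2% in the others (odds ratio 0.958, 95% interval 0.740 to 1.24, p = 0.792, both by Fisher's exact test). On either side the difference from intronic peaks did not pass the threshold, and its intervals include differences in either direction.

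**Figure D3:**
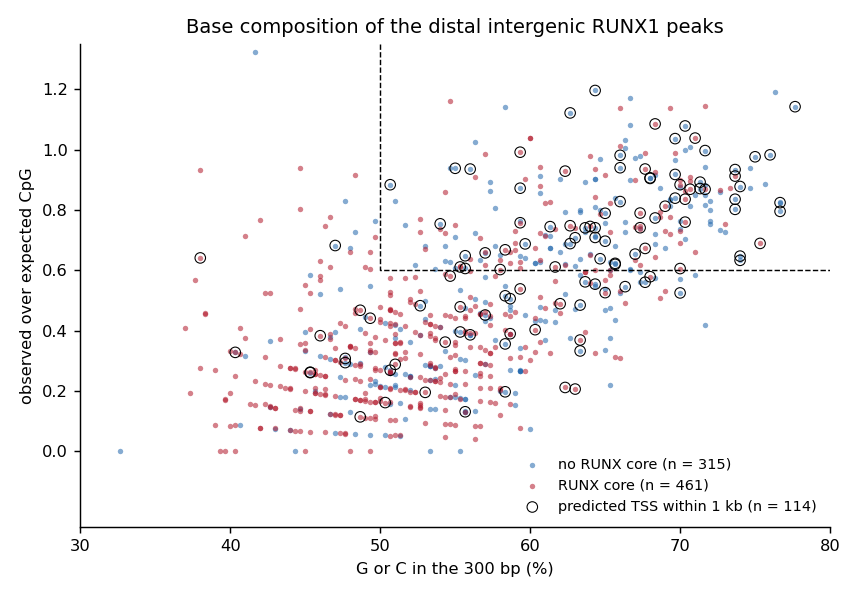
Observed over expected CpG ratio (vertical axis) by G or C content in % (horizontal axis) of the 776 distal intergenic RUNX1 peaks, coloured by presence of a RUNX core, with rings on the 114 peaks within 1 kb of a predicted TSS. Dashed lines bound the 246 CpG-rich peaks, where 71 of the rings and 99 of the 461 peaks with a core lie.

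The peak nearest to Tcf12, a gene for a basic helix-loop-helix factor, was the CpG-rich peak of highest fold without a core (fold 25.45, with a p-value of 2.39e-56, chr9:72132887-72133186, 21217 bp upstream of the TSS). It had 74.7% G or C and 36 CpG pairs, which are in capitals below.
Tcf12, chr9:72132887-72133186, + strand: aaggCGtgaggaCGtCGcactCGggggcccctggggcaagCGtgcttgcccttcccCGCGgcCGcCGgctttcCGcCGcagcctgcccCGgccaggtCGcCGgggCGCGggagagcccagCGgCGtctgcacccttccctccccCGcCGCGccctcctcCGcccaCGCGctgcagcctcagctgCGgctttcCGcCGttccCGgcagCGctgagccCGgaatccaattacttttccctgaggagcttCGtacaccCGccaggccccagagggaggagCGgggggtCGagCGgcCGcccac

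Part of the CpG-rich peaks lay close to starts of predicted transcripts. RefSeq also holds models predicted by computation, which the rule for these peaks did not use. Of the 776 peaks, 114 (14.7%) were within 1 kb of a predicted TSS and 217 within a predicted transcript, so the name intergenic holds for the curated annotation only. A predicted TSS within 1 kb was found for 71 of 246 CpG-rich peaks (28.9%) and 43 of the other 530 (8.11%), an odds ratio of 4.59 (95% interval from 3.02 to 6.91, p = 4.42e-13 by Fisher's exact test, chosen after seeing the data). The highest fold among peaks so near a predicted TSS was 21.29, at 183 bp, in the peak whose nearest curated gene was Gm32141. With all RefSeq models in the rule, 441 of the 776 peaks (56.8%) stayed distal intergenic.

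Sites of 13 other kinds of factor were searched by their letters on both strands. The KLF/SP site was taken as GGGCGG, the E-box of helix-loop-helix proteins as CAGCTG, and CTCF was searched by its consensus. For forkhead factors the letters were TATTTAC, with TGTTTAC as an alternative, and for the GATA family they were AGATAA, with TGATAA as an alternative. The NR5A site of gonadal nuclear receptors was CAAGGTCA, or alternatively CAAGGCCA. TEAD factors, which act in the Hippo pathway, were given AGGAATG and alternatively GGGAATG, and the factors of the ETS family AGGAAGT and alternatively CGGAAGT. SOX factors were given AACAAAG and alternatively AACAATG, and the TCF and LEF factors of WNT signalling CTTTGAT. The AP-1 site was TGAGTCA, that of homeodomain proteins TAATTA, and the site of the promoter factor NFY was CCAAT. Sites of different kinds may share bases, as SOX and TCF/LEF sites do, and a match by letters does not show that a factor was bound.

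Against their own flanks, sites of 3 of the 13 kinds were more frequent in the distal intergenic peaks and none was less frequent past the threshold (exact McNemar tests, adjusted over the 13). The KLF/SP site, bound by Krüppel-like and SP factors, was in 29.1% of 769 peaks and 7.41% of flanks (exact McNemar test, adjusted p = 3.18e-29). This site was in 142 of the 246 CpG-rich peaks (57.7%) and in 87 of the other 530 (16.4%), counts looked up after seeing the data. Flanks were not matched to the peaks by G or C content. The E-box, bound by basic helix-loop-helix factors, was in 23.3% and 13.8% (exact McNemar test, adjusted p = 6.27e-06). The site of CTCF, which marks boundaries of chromatin loops, was in 33 peaks (4.29%) and in 2 flanks (0.260%, exact McNemar test, adjusted p = 5.15e-08). Over all promoters these sites were in 35.7%, 16.3% and 0.557%. Forkhead sites, to which FOXL2 binds, were in 6.37% of peaks and 8.06% of flanks (exact McNemar test, adjusted p = 0.358). The paper reports that RUNX1 and FOXL2 peaks overlap in part, and this overlap was not tested here. The GATA site was in 22.1% and 23.9% (exact McNemar test, adjusted p = 0.558), and the NR5A site, bound by the gonadal factors SF1 and LRH-1, in 10.3% and 6.76% (adjusted p = 0.0576). Forkhead sites were in 2.03% of CpG-rich and 8.49% of the other peaks, and GATA sites in 10.6% and 27.2%. NR5A sites were in 10 of the 246 CpG-rich and 69 of the other 530 peaks. These values were looked up after seeing the data. Peaks were not tested against flanks within each side of this split, so the flank tests pool both kinds of peak. Over all promoters the forkhead, GATA and NR5A sites were in 6.54%, 18.6% and 3.92%. Of the 776 peaks, 12.4% held a TEAD, 10.1% an ETS, 7.22% a SOX, 5.41% a homeobox, 4.38% an AP-1 and 31.4% an NFY site, and of all promoters 9.62%, 15.1%, 9.36%, 5.29%, 5.20% and 37.4% did in the same order. A TCF/LEF site was in 38 of the 776 peaks and in 3.73% of promoters.

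Against TSS-proximal peaks, sites of all 13 kinds differed, 11 more and 2 less frequent in the distal intergenic peaks (Fisher's exact tests, adjusted over the 13). The homeobox site (5.41% against 0.621%), the CTCF site (4.25% against 0.583%) and the GATA site (21.9% against 4.21%) had the largest odds ratios, 9.16, 7.58 and 6.39. The 2 less frequent were KLF/SP, 29.5% against 65.8% (odds ratio 0.218, Fisher's exact test, adjusted p = 2.99e-84), and ETS, 10.1% against 13.9% (odds ratio 0.693, adjusted p = 0.00246). G or C content moved with these shares, at a median of 55.3% against 68.0%, and among peaks of 45% to 60% G or C, 9 of the 13 kinds of site differed. Among CpG-rich peaks 3 kinds differed, and among the others 8.

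Against distal intronic peaks 5 of the 13 passed. KLF/SP was more frequent, 29.5% against 17.9% (odds ratio 1.92, Fisher's exact test, adjusted p = 7.62e-06), and SOX, E-box, GATA and homeobox sites were less frequent, with odds ratios of 0.546, 0.672, 0.697 and 0.589. In the comparison within CpG-rich peaks 0 of 13 passed by Fisher's exact test with adjustment, with 1 at an unadjusted p under 0.05, and within the other peaks also 0, with 2 at an unadjusted p under 0.05. CTCF sites were in 4.25% of the intergenic and 4.10% of the intronic peaks (odds ratio 1.04, 95% interval 0.611 to 1.75, by Fisher's exact test adjusted p = 1).

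**Figure D4:**
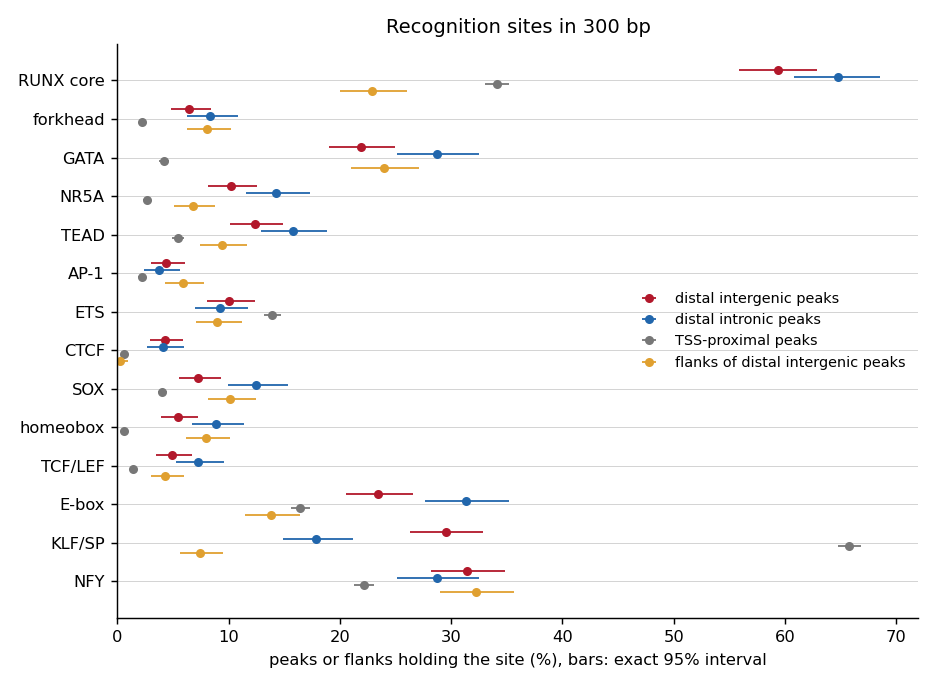
Share of peaks or flanks that hold each of 14 sites (horizontal axis, %), for 776 distal intergenic, 610 distal intronic and 7892 TSS-proximal RUNX1 peaks and 769 flanks of distal intergenic peaks, with exact 95% binomial intervals. RUNX core, KLF/SP, E-box and CTCF are the sites at which the distal intergenic peaks lie to the right of their flanks past the threshold.

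Peaks with a CTCF site included 1 of the strongest. The peak upstream of Col6a2, which encodes a chain of collagen VI, had a fold of 66.95, a p-value of 1.20e-305 and 2 RUNX cores beside the CTCF site. Of the 33 peaks with a CTCF site, 23 had a RUNX core, the median fold was 7.03 and 15 had the site within 50 bp of the midpoint.
Among the 461 peaks with a core, GATA sites were in 26.9% and KLF/SP sites in 22.8%, and among the 315 without a core in 14.6% and 39.4%. Peaks without a core had a median of 59.3% G or C and those with one 53.0%. Of the 315, 272 held at least 1 of the 13 other sites and 43 held none of the 14.

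The fold of the distal intergenic peaks ran from 4.01 to 133.29, with a median of 5.97 (quartiles 4.81 and 8.64). The median was 6.29 in distal intronic, 6.48 in TSS-proximal and 6.90 in intergenic peaks over 100 kb from a TSS. Above the median of the whole list, 6.41, were 44.1% of the distal intergenic and 50.6% of the TSS-proximal peaks (odds ratio 0.768, 95% interval from 0.662 to 0.891, p = 0.000531 by Fisher's exact test). With predicted RefSeq models included the odds ratio was 0.901 and no longer past the threshold (Fisher's exact test, p = 0.258). Against the distal intronic peaks, at 47.7%, the odds ratio was 0.864 (95% interval 0.698 to 1.07, and by Fisher's exact test p = 0.192). Of the 10 peaks of highest fold in the whole list 2 were distal intergenic, and of the top 50, 100 and 500, 10, 14 and 46 were, counts given without a test. Distal intergenic peaks made up 7.40% of the whole list on these chromosomes. A fold of 8 or more was reached by 30.0% of the distal intergenic and 32.1% of the TSS-proximal peaks. At the limits of the rule the median fold was 6.51 in 42 intergenic peaks at 9 to 10 kb and 6.35 in 27 peaks at 10 to 11 kb, and 5.29 in 15 peaks at 90 to 100 kb and 5.55 in 22 peaks at 100 to 110 kb.

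Of the 15 peaks of highest fold, 14 are named by their nearest gene. The highest was 34312 bp upstream of Dnah7a, which encodes a motor protein of cilia, at chr1:53740947-53741246, with a fold of 133.29 and a p-value of 7.02e-63. The next was 83422 bp upstream of the long non-coding RNA gene C230072F16Rik, with a fold of 111.07. The peak 14886 bp downstream of the TSS of Gpx6, a glutathione peroxidase gene, had a fold of 77.14 and a p-value given as 0, which is the smallest among the 776. Of the 15 peaks, 14 held a core, 8 had 2 or more, 12 were upstream of the nearest TSS and 2 were CpG-rich. The exception without a core was the peak upstream of Gm10415, at a fold of 66.64, which held forkhead, GATA, TEAD and homeobox sites.

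The remaining peaks of these 14 had folds from 28.14 to 68.50. The peak at 5033404E19Rik had 68.50 and 3 cores, and a second peak, 53598 bp from the same TSS, had 8.02. Peaks upstream of Mir30a, the gene of a microRNA, and near C330008A17Rik had 48.13 and 46.28 and were the CpG-rich ones. The peak upstream of Tmsb10, which encodes an actin-binding thymosin, had 44.43. The peak 14807 bp upstream of Dlk1, an imprinted gene for a Notch-like membrane protein, had 43.50, and its core is followed by T. Peaks upstream of Psmd4, a proteasome subunit gene, and of Galnt13, whose enzyme starts O-linked sugar chains, had 37.02 and 33.32. Those upstream of Mir205hg and 1700080G11Rik had 30.55 and 28.14.

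**Figure D5:**
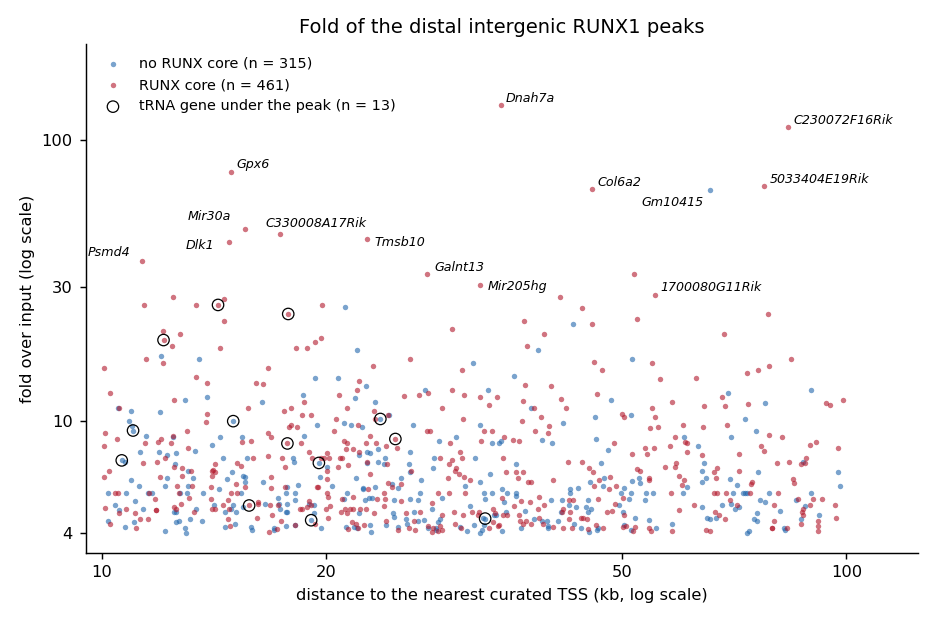
Fold over input (vertical axis, log scale) by distance to the nearest curated TSS in kb (horizontal axis, log scale) for the 776 distal intergenic RUNX1 peaks, coloured by presence of a RUNX core, with rings on the 13 peaks over a tRNA gene and 14 of the 15 highest labelled by nearest gene. The 14 labelled peaks spread from 11325 bp (Psmd4) to 83422 bp (C230072F16Rik) from a TSS.

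A small group lay on tRNA genes, which RNA polymerase III transcribes and which the rule did not count as genes. A tRNA gene overlapped 13 of the 776 peaks (1.68%), 4 of 7892 TSS-proximal peaks (0.0507%) and 0 of 610 distal intronic peaks, counts looked up after seeing the data. RefSeq places 403 tRNA genes on these chromosomes, of which 25 lay under a RUNX1 peak of any class. The classes differ in how many tRNA genes they could hold: placed by the same rule, 155 tRNA genes were distal intergenic, 45 TSS-proximal and 65 distal intronic, and 13 (8.39%), 4 (8.89%) and 0 of these lay under a peak. The 13 peaks had a median fold of 8.64, against 5.92 in the other distal intergenic peaks, and 6 held a RUNX core. Among those of highest fold were peaks on a tRNA-Glu gene near Olfr1368 (24.07) and a tRNA-Ser gene near Btn2a2 (19.44). Of the 13, 4 were on chromosome 13, and how many of the 403 tRNA genes lie on that chromosome was not counted.

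RefSeq marks enhancers that were tested in experiments, and 14 of the 776 peaks (1.80%) overlapped 1. The share was 2.13% of distal intronic and 0.0760% of TSS-proximal peaks. How many marked enhancers each class could hold was not counted, so these shares are a description. The tissues in which the enhancers were tested were not compared with the ovary. Among the 14 were the peak 18250 bp upstream of Fos, which encodes a subunit of AP-1 (fold 9.54, with a p-value of 1.41e-41), a pair of peaks near Hmga2, a gene for a chromatin protein of growing embryonic tissue (8.15 and 6.61), and peaks near Wnt10a (5.97), which encodes a WNT ligand, and Btg2 (8.20), an inhibitor of cell growth.

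The peaks lay a median of 27811 bp from the nearest TSS (quartiles 17589 and 47148 bp). There were 247 at 10 to 20 kb, 348 at 20 to 50 kb and 181 at 50 to 100 kb, and 473 were upstream of that TSS. Another distal intergenic peak lay within 10 kb of 77 (9.92%), in 38 clusters of which 1 held 3 peaks, and the median distance to any other RUNX1 peak was 36316 bp. The rule itself bears on this distance, since it keeps peaks over 10 kb from a TSS and 7892 of the 10490 RUNX1 peaks lie within 1 kb of one. Spacing was not compared with that of other classes. Per Mb, chromosome 19 held the most, 0.440, and the X chromosome the fewest, 0.0526, with 9 peaks. Of all RUNX1 peaks, 7.74% on chromosome 19 and 4.35% on the X were distal intergenic, against 7.40% on all these chromosomes together. The highest such share was 9.68%, on chromosome 13. The peaks near Rn4.5s and Rny3 on chromosome 6 had 60.1% of their words of 20 bases in common, and no other pair of the 776 shared 50% or more.

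The peaks were nearest to 692 genes, 2.64% of the 26180 curated genes. Of these, 519 were protein-coding, and 246 of the 519 (47.4%) also had a RUNX1 peak within 1 kb of a TSS, where 32.7% of all curated genes and 37.2% of protein-coding genes had one. Most genes, 616, were nearest to a single peak, 69 to 2 and 7 to 3 or more. Skor1, which encodes a co-repressor that binds SMAD proteins, was nearest to 4 peaks, at folds of 11.11, 6.40, 4.44 and 4.40, and 2 of them held a core. Klrb1c, a gene for a receptor of natural killer cells, was also nearest to 4, with folds of 4.21 to 5.13. Those with 3 were Gm32141 (highest fold 21.29), Tex44 (18.28), Acot11 (8.89), Csrp1 (5.55) and Zfp541 (5.29). The 3 peaks at Zfp541 lay within 6516 bp, the largest cluster, and each held a core, whereas none of the 3 at Csrp1 did. Neither Skor1 nor Klrb1c had a peak within 1 kb of its own curated TSS. Part of the peaks of these 7 genes lay within 1 kb of a predicted TSS. The distances were 808, 893 and 551 bp at Tex44, 69 and 296 bp at Csrp1 and 338 and 755 bp at Skor1. They were 261 and 437 bp at Zfp541, 433 bp at Acot11, 786 bp at Klrb1c and 183 bp at Gm32141.

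Genes of gonad development, signalling and transcription were looked up in 16 lists of 399 genes in all. Of the 399, 22 (5.51%) were nearest to a distal intergenic peak, against 2.64% of all curated genes, and 200 (50.1%) had a TSS-proximal peak, against 32.7%. Genes differ in how much sequence surrounds them, so these shares are a description and were not tested.

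Among 16 early gonad transcription factors, 2 were nearest to such a peak. Emx2, a homeobox gene needed to form the gonad, had a CpG-rich peak 10527 bp downstream of its TSS (fold 4.81) without a core, and Zfpm2, whose protein FOG2 is the partner of GATA4, had a peak 61105 bp upstream (fold 7.78) with a core and a GATA site. Among 23 pre-granulosa and ovary genes there were 2. Esr2, which encodes the oestrogen receptor of granulosa cells, had a peak 18640 bp upstream (fold 12.34, with a p-value of 1.37e-15) with none of the 14 sites. For Axin2, a feedback inhibitor and target of WNT signalling, the peak lay 91581 bp downstream of the TSS and held a core (fold 4.40, with a p-value of 7.25e-41). Of 19 Sertoli and testis genes, 1 was nearest to a peak: Cyp26b1, whose enzyme breaks down retinoic acid, at a fold of 4.50 and without a core.

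Of 17 RUNX family members and partners, 1 was nearest to a distal intergenic peak. This was Cbfb, the gene of the shared partner of the RUNX factors, with a peak 17595 bp upstream (fold 6.88) that held a core. For the signalling lists there was 1 gene each: Smad3 of 38 TGF-beta, activin and BMP genes (fold 4.71), Axin2 of 41 WNT and R-spondin genes and Amotl2 of 25 Hippo pathway genes (4.86), and 0 of 28 Notch, hedgehog and PDGF genes. The peaks of Smad3 and Amotl2 held no core, and that of Smad3 was 121 bp from a predicted TSS.

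Transcription factor families gave the longest sets of genes. Of 34 AP-1, KLF and ETS genes there were 5, Klf9 (fold 16.66, 2 cores, 84194 bp upstream), Klf10 (10.18), Fos (9.54), Klf4 and Fosb. Of 38 nuclear receptor genes there were 5, Esr2, Rxra (9.46, with a core and a CTCF site), Nr4a2 (7.40), Nr4a1 and Rxrg. Of 29 forkhead genes there were 2: Foxd1, a marker of stromal cells in other organs, with peaks of fold 18.51 and 4.07, and Foxk1 with 1 of 12.19. Of 19 SOX genes there were 0, and likewise 0 of 19 germ cell genes and 0 of 14 steroidogenic genes. Of 44 extracellular matrix and adhesion genes there was 1, Vcl (7.14), which encodes a protein of cell adhesions. Of 21 blood and endothelial genes there were 2, Gata2 (4.86) and Bcl11a (4.11), each with a core. Neither gene had a peak within 1 kb of a curated TSS, but the Gata2 peak lay within 1 kb of a predicted TSS.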

How the data were processed

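RUNX1 ChIP-seq and input libraries, 2 of each, were made from pooled ovaries of CD1 embryos at E14.5. Per the methods and processing notes, the authors kept uniquely mapped reads on mm10 (Bowtie 1.2), removed duplicates (Picard 1.110), merged replicates, called peaks with HOMER 4.9, set each to 300 bp around its midpoint and filtered for enrichment over input and local signal. The notes also name bedtools 2.24.0. Unique mapping leaves out reads that match at several places, but not all repeat sequence: the distal intergenic peaks held a median of 7% of bases marked as repeat. For each of its 10494 peaks the deposited list holds a position, a fold (a ratio over input from the authors' caller, at least 4.01) and a p-value (as deposited, at most 2.44e-06). The 4 peaks outside chromosomes 1 to 19 and X were left out. The list gives no read counts and library totals were not used here, so the depth behind a single peak is unknown and intervals cover counting of peaks only.

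Peaks were placed on GRCm38.p6 (mm10) with 45756 curated RefSeq transcripts. Classes were compared with Fisher's exact test and flanks with the exact McNemar test, two-sided, with Benjamini-Hochberg adjustment over 13 sites and a threshold of 0.05 (scipy 1.17.1). Odds ratio intervals are at 95%, on log odds with 0.5 added to each count. The steps were tested on simulated sequences. The members and lists were chosen with earlier results of these data known. Named genes were those nearest to the 15 highest folds or to 3 or more peaks, and up to 3 per list by fold. Klf4, Fosb, Nr4a1, Rxrg and genes named for a tRNA gene, enhancer, shared sequence or CpG content were added after their values were seen. Some genes and sequences that these rules name are not reported here.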

Additional observations from a re-analysis of the deposited data

How the results depend on the processing

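Of 145 recomputed values, 109 kept their direction and their side of the threshold, or stayed within the limit set for a count. The difference in RUNX core share from the flanks held under all 14 alternatives (20.2 to 55.4 percentage points), and the lower share in CpG-rich peaks under all 6 run (odds ratios 0.157 to 0.336). The difference from TSS-proximal peaks held under 14 of 15 and was lost with TGCGGT alone (odds ratio 1.03). With TGCGGT alone the odds ratio by G or C was above 1 but did not pass the threshold (1.39, Fisher's exact test, p = 0.0532).

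The difference in RUNX core share from distal intronic peaks held under 5 of 15 alternatives (odds ratios 0.667 to 0.789). Its odds ratio was 0.850 with predicted models, 0.842 over 10 kb from transcript ends, 0.818 at fold 8 or more, 0.758 at p under 1e-20, 0.958 without CpG-rich peaks, 0.915 without peaks near a predicted TSS and 0.804 without peaks on tRNA genes, none past the threshold. This odds ratio was above 1 with TGCGGT alone (1.109), at 45% to 60% G or C (1.05) and in CpG-rich peaks (1.40), also without passing the threshold.

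The number of distal intergenic peaks became 518 with predicted models, 619 with the limit on transcript ends, 233 at fold 8 or more, 159 at p under 1e-20 and 662 without those near a predicted TSS. Of the 13 other sites, 5 differed from flanks with predicted models, in the central 100 bp or with flanks 2 kb away. Against TSS-proximal peaks 3 differed among CpG-rich and 8 among the other peaks. Against intronic peaks the count was 2 with predicted models or at 45% to 60% G or C, 1 at fold 8 or more or in the central 100 bp, 3 with 1 peak per gene or without predicted TSSs, and by Fisher's exact test with adjustment 0 at p under 1e-20 (2 at an unadjusted p under 0.05), in CpG-rich (1) and in the other peaks (2).

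The lower fold against TSS-proximal peaks was lost with predicted models (odds ratio 0.901) and reversed at p under 1e-20 (3.17), a limit set by the same reads as the fold, so that this value supports nothing about fold. Against intronic peaks the odds ratio of fold was 1.01 with predicted models and, like the value reported above, did not pass the threshold. RUNX core by fold was lost at fold 8 or more (1.63) and at p under 1e-20 (2.11), which keep fewer peaks. All other causes were not tested. The fold comparisons could not be made at fold 8 or more, where every peak is above the list's median. No paired analysis was possible because the peaks were called on merged replicates, and for the same reason no replicate could be left out.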
